A study of Homo sapiens with 9 samples.

Results

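*CD69* encodes an early activation antigen of T cells, and its locus was examined for open chromatin in the human T cell leukaemia line Jurkat (Clone E6-1). A merged region was counted as a *CD69* region when any of its bases lay in the gene body or within 50 kb of the transcription start site (TSS). By this rule 9 merged regions belonged to *CD69*, out of 40703 on the autosomes and sex chromosomes. A merged region is the stretch obtained when overlapping or touching peaks of the 4 deposited peak lists are joined. The lists come from FAIRE-seq (formaldehyde-assisted isolation of regulatory elements), which sequences DNA that is not held by nucleosomes, and they were called against a total input library. The labels assign the lists to non-stimulated cells (NS) given the vehicle DMSO, to stimulus withdrawal cells (SW) given DMSO, and to each of these states after 1 h of pre-treatment with rottlerin at 15 μM, an inhibitor used against protein kinase C. SW cells had been stimulated with PMA and ionomycin, for 4 h by their labels, then washed and rested for 1 day. The methods of the study state a shorter stimulation.

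Each list holds 1 library, so no difference below has a replicate check and no p-value is given. The study's methods describe peak calling in its DMSO samples alone, whereas the labels assign 2 of these lists to rottlerin. All peaks of the 4 lists joined gave 40731 regions, exactly the total that the methods give for the DMSO samples. The labels are thus uncertain, and the lists named for rottlerin may hold DMSO samples. The lists are therefore called by their labels (NS DMSO, SW DMSO, NS rottlerin and SW rottlerin), and differences between them are given as differences between lists, not as effects of rottlerin or of stimulus withdrawal. Read depth is unknown from peak lists. The NS DMSO list was the shortest with 18977 peaks, against 20132, 23835 and 30409 in the SW DMSO, NS rottlerin and SW rottlerin lists, and a region without a peak is one that was not called in that library. Column 7 of each list, called fold enrichment here, is the peak's FAIRE signal over the total input, and its median over all peaks was 4.05, 4.03, 4.08 and 4.03 in the same order.

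CD69 is a type II membrane protein with a C-type lectin-like domain that appears on lymphocytes soon after antigen receptor or phorbol ester signals. It binds the sphingosine-1-phosphate receptor S1PR1, removes it from the cell surface and so keeps activated lymphocytes in lymphoid tissue. Its gene lies in the natural killer gene complex, among genes of other C-type lectin-like receptors, and its promoter is known to respond to NFκB, AP1 and EGR factors. On Hg19 (GRCh37) the gene lies on the minus strand of chromosome 12 from 9905082 to 9913497, with its TSS at 9913497, and the window ran from 9863497 to 9963497. The only other annotated gene with a TSS inside the window was *CLECL1P*, a pseudogene of the same lectin-like family, whose TSS lies 27.6 kb from that of *CD69*.

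The 9 regions are numbered R1 to R9 by their position on chromosome 12, and since the gene is on the minus strand R1 to R4 lie downstream of the TSS and R5 to R9 upstream or across it. R1 (9894395 to 9894761) lies 10321 bp beyond the gene end, in intergenic sequence, and its mid-point is nearer to the TSS of *CLECL1P* (8.68 kb) than to that of *CD69* (18.9 kb). R2 (9901348 to 9901527) and R3 (9903181 to 9904698) lie 3555 bp and 384 bp beyond the gene end. R4 (9910848 to 9911322) lies in the first intron, 2.41 kb from the TSS. R5 (9913278 to 9914841) spans the TSS, with the whole 5′ UTR and coding part of exon 1. R6 (9917199 to 9918406) lies 4.31 kb upstream of the TSS by its mid-point. R7 (9925640 to 9926465), R8 (9946522 to 9946835) and R9 (9950680 to 9950931) lie 12.6, 33.2 and 37.3 kb upstream, in intergenic sequence.

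The sequences below are the stretches on which the lists agree, that is, the bases common to every list with a peak in the region, cut to the central 300 bases where longer. R1 is shown because it carries a peak in all lists, R3 and R9 because they carry a peak in every list but NS DMSO, and R2 because it resembles R3. All are from GRCh37, 5′ to 3′ on the minus strand, which is the strand of *CD69*. Capitals mark matches to the consensus sequences of AP1, CRE, NFAT, NFκB, ETS, RUNX, GATA, EGR, SRF and CTCF described further on.
Intergenic region on the 3′ side of the gene, R1, chr12:9894439-9894678: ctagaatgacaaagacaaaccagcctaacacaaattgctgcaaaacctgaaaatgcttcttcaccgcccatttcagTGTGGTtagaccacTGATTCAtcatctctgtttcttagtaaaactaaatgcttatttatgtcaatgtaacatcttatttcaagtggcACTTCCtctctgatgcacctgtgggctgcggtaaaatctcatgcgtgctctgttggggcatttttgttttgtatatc
Region found in SW DMSO, R2, chr12:9901348-9901527: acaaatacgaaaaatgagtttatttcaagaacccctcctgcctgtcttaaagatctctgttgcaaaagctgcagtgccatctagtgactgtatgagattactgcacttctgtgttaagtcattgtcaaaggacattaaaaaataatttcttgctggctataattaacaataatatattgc
Region next to the gene end, R3, chr12:9903271-9903570: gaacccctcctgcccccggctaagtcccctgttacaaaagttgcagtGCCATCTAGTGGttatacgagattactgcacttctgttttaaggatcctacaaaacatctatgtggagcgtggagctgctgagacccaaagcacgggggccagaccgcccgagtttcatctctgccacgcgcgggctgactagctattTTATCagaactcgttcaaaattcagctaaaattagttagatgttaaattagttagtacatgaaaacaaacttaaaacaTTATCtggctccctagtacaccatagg
Far upstream region, R9, chr12:9950704-9950872: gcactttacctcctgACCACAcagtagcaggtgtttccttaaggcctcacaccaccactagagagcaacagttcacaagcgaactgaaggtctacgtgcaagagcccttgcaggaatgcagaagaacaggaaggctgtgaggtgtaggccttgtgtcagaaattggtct

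Peaks in all 4 lists were found at 3 of the 9 regions (33.3%), namely R1, R5 and R6. Over all 40703 merged regions the share was 26.6%. The other 6 regions (66.7%) had no NS DMSO peak, against 53.5% of all merged regions. The Wilson 95% interval for 6 of 9 runs from 35.4 to 87.9% and covers counting error only, so with 9 regions the share at *CD69* was not distinguishable from the share over all regions. R3 and R9, 2 of the 9 regions (22.2%, interval 6.32 to 54.7%), had a peak in each of the SW DMSO, NS rottlerin and SW rottlerin lists and none in NS DMSO, against 7.08% of all merged regions. R7 had a peak in the NS rottlerin and SW rottlerin lists. R2 and R8 were found in the SW DMSO list alone and R4 in the NS rottlerin list alone, so 3 of the 9 regions (33.3%) rested on 1 list, against 38.8% of all merged regions.

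**Figure D1:**
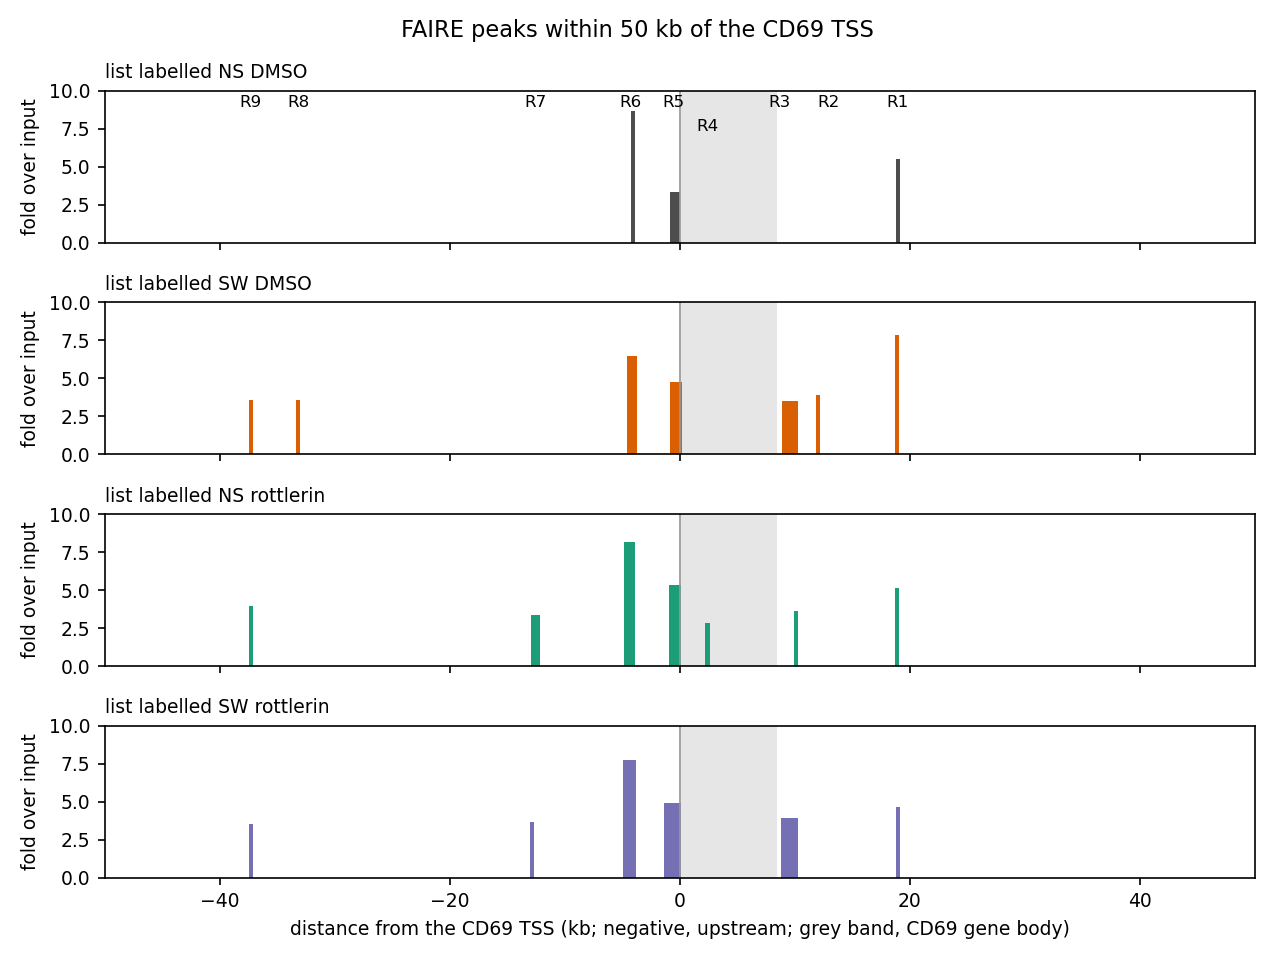
Peaks within 50 kb of the *CD69* TSS in each list. The x axis is the distance from the TSS in kb along the gene (negative, upstream), the y axis is the fold enrichment of each peak over total input, and each bar spans its peak (narrow peaks are drawn wider than they are, so as to be seen). The NS DMSO list shows 3 bars, at R1, R5 and R6, and the other lists show 7, 7 and 6.

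By list, the window held 3 regions with a peak in NS DMSO, 7 in SW DMSO, 7 in NS rottlerin and 6 in SW rottlerin. Peaks covered 1506 bp of the window in NS DMSO, 4356 bp in SW DMSO, 4089 bp in NS rottlerin and 4792 bp in SW rottlerin. The covered length was thus 2.89, 2.72 and 3.18 times that of NS DMSO, whereas over the whole genome the same lists covered 1.07, 1.27 and 1.72 times the length covered in NS DMSO. The share of other gene windows with such ratios is not given here, so these values do not show how unusual the window is. When each list was reduced to as many of its highest-scoring peaks as the shortest list holds, NS DMSO kept 3 regions at *CD69* and the other lists had 7, 5 and 5. All 23 peaks at *CD69* had a q-value of 0.0321 or less.

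R6, the upstream region, had the highest fold enrichment of the window in 3 of the 4 lists. It was 8.65 in NS DMSO, 6.43 in SW DMSO, 8.16 in NS rottlerin and 7.74 in SW rottlerin. NS DMSO was thus the highest and SW DMSO the lowest. Among all peaks of its own list, R6 ranked 50th in NS DMSO, 750th in SW DMSO, 113th in NS rottlerin and 360th in SW rottlerin, so in every list it stood in the top 3.73% of peaks. Among the 10841 regions called in every list, 18.9% had their highest fold enrichment in NS DMSO, as R6 did. The ratio of SW DMSO to NS DMSO was 0.744 at R6 against a median of 0.985 over these regions, 5.18% of which had a ratio as low or lower. For NS rottlerin the ratio at R6 was 0.943, with 27.8% of these regions as low or lower, and for SW rottlerin it was 0.895, with 14.7% as low or lower.

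The length covered by the peak at R6 followed another order. It was 387 bp in NS DMSO, 881 bp in SW DMSO, 953 bp in NS rottlerin and 1080 bp in SW rottlerin. The narrowest peak was therefore the NS DMSO peak, which also had the highest fold enrichment. The fold enrichments at R6 thus belong to peaks of unlike length, and whether length shaped their order was not tested. Covered length was greater in each other list than in NS DMSO at R5 and R6, 2 of the 3 *CD69* regions in all lists, and at 37.2% of the 10841 regions called in every list. A widening as large as at R6 was less frequent over these regions, since 5.24% reached its ratio of 2.28 for SW DMSO, 5.67% its ratio of 2.46 for NS rottlerin and 6.92% its ratio of 2.79 for SW rottlerin. On the chromosome the peak reached from 9917384 to 9917770 in NS DMSO, and the peaks of NS rottlerin and SW rottlerin extended beyond it mainly on the side away from the gene, to 9918313 and 9918406.

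R5, the promoter region, had the lowest fold enrichment in NS DMSO. Its value was 3.35 in NS DMSO, 4.76 in SW DMSO, 5.32 in NS rottlerin and 4.91 in SW rottlerin. The last 3 values lie close together and all exceed the NS DMSO value. Within its own list the NS DMSO peak was among the weaker ones, with 81.6% of peaks at or above it, whereas 24.7%, 16.1% and 23.7% of peaks stood at or above it in SW DMSO, NS rottlerin and SW rottlerin. The q-value was 0.000439 in NS DMSO and between 9.76e-12 and 2.24e-09 in the others. A fold enrichment higher in each other list than in NS DMSO was found at 1 of the 3 *CD69* regions in all lists (R5) and at 32.2% of all 10841 such regions. The size of the ratios was less usual, as 2.87% of these regions had at least the ratio of R5 (1.42) for SW DMSO, 1.88% at least its ratio (1.59) for NS rottlerin and 6.0% at least its ratio (1.47) for SW rottlerin. The peak covered 848 bp in NS DMSO and 1045, 994 and 1476 bp in the others. On the side of the gene the NS DMSO peak ended at 9913458, inside the 5′ UTR. The peaks of NS rottlerin (9913412) and SW rottlerin (9913366) reached into the coding part of exon 1, and that of SW DMSO (9913278) into the first intron.

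R1, the intergenic region on the 3′ side, was strongest in SW DMSO. The fold enrichment was 5.47 in NS DMSO, 7.87 in SW DMSO, 5.11 in NS rottlerin and 4.65 in SW rottlerin. SW DMSO stood apart from the other lists, which lie between 4.65 and 5.47. With a rank of 90 of 20132 peaks it was the highest *CD69* peak of that list, above R6. Over all 10841 regions called in every list, 12.9% had their highest fold enrichment in SW DMSO, and 2.56% had a ratio of SW DMSO to NS DMSO as high as the 1.44 of R1. The covered length at R1 varied little, between 259 bp in SW rottlerin and 367 bp in SW DMSO.

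**Figure D2:**
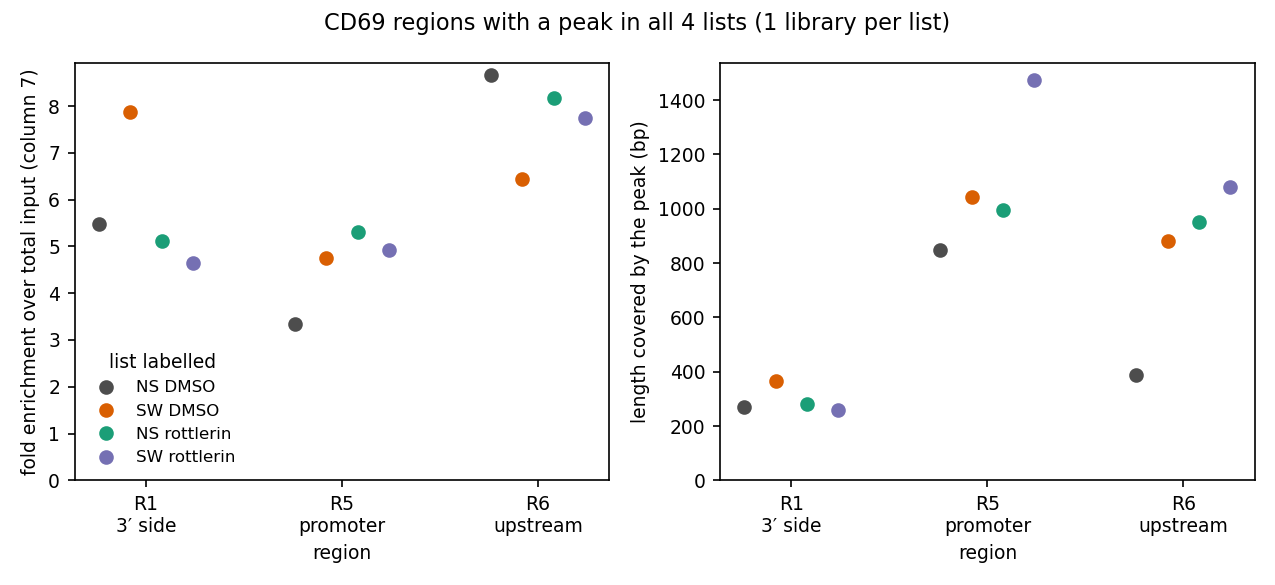
Fold enrichment over total input (left, y axis) and length covered by the peak in bp (right, y axis) for the *CD69* regions with a peak in all lists (x axis), 1 point per list and 1 library per list. NS DMSO is lowest at the promoter region R5 (3.35) and highest at the upstream region R6 (8.65), where its peak is the narrowest (387 bp).

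**Figure D3:**
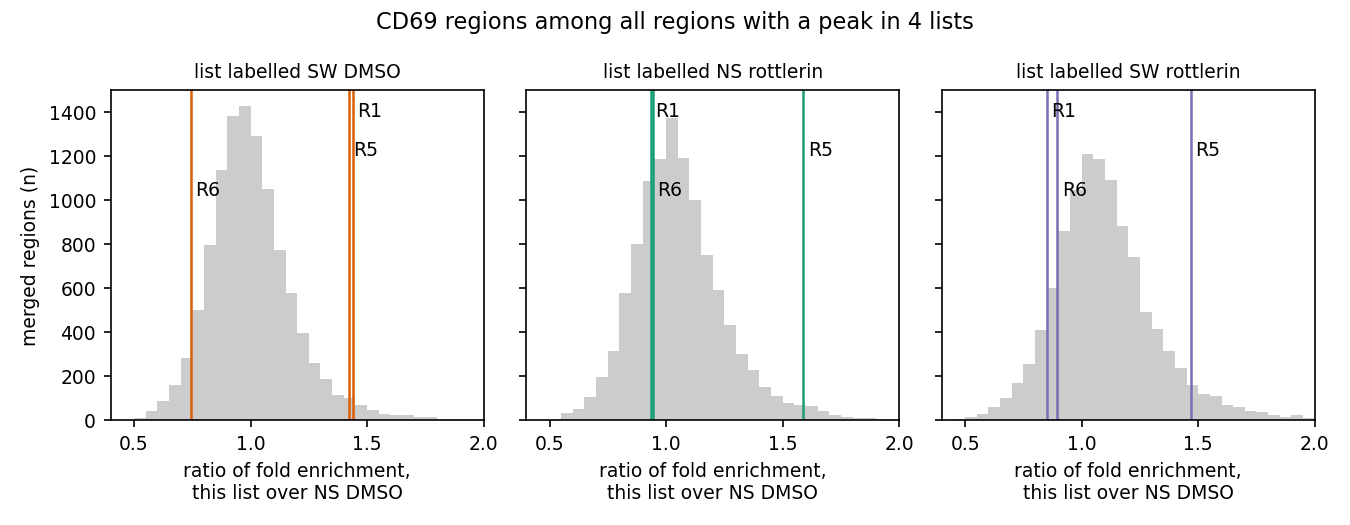
Ratio of the fold enrichment in SW DMSO, NS rottlerin and SW rottlerin to that in NS DMSO (x axis) over the 10841 regions called in every list (grey bars, number of regions on the y axis), with vertical lines at R1, R5 and R6. R5 lies on the right side of the distribution in each panel (1.42, 1.59 and 1.47), R1 only in SW DMSO (1.44), and R6 lies left of the median in each.

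The 6 regions without an NS DMSO peak were weaker, with fold enrichments between 2.84 and 3.96 in the lists where they were called, below the median of their list. At R3, next to the gene end, the fold enrichment was 3.51 in SW DMSO, 3.63 in NS rottlerin and 3.96 in SW rottlerin. The order of these values differs from that of the covered lengths, since the peak was broad in SW DMSO (1399 bp) and SW rottlerin (1495 bp) and short in NS rottlerin (308 bp). At R9, farthest upstream, the fold enrichment was 3.55 in SW DMSO, 3.96 in NS rottlerin and 3.56 in SW rottlerin, over 170, 252 and 192 bp. The 3 peaks at R9 thus had similar values, and they share 169 bases. At R7 the value was 3.39 in NS rottlerin, where the peak covered 825 bp, and 3.69 in SW rottlerin, where it covered the 290 bp farthest from the gene. The regions found in 1 list had a fold enrichment of 3.91 (R2, SW DMSO), 3.58 (R8, SW DMSO) and 2.84 (R4, NS rottlerin). R4, the only region wholly inside the gene, was the weakest, and 96.7% of the peaks in its list stood at or above it.

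The edges of the window cut off no region. The nearest merged region beyond it on the upstream side (9966802 to 9967010) is 53.3 kb away from the TSS, with a fold enrichment of 3.03 in NS DMSO, 3.59 in NS rottlerin and 3.01 in SW rottlerin, with no peak in SW DMSO. On the other side the nearest one (9854996 to 9855186), 58.3 kb from the TSS, had a peak in NS DMSO alone (3.22). Both have an NS DMSO peak, as has R1, the outermost *CD69* region downstream, whereas R9, the outermost upstream, has none.

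In base composition the *CD69* regions were AT-rich at their centres. In 300 bases centred on each region, GC content ran from 27.7% (R3) to 46.7% (R9) with a median of 34.0%. The number of CpG dinucleotides ran from 2 to 4. R2 (180 bp) and R9 (252 bp) are shorter than this window, so their values include bases beyond the region. The place of the window matters here too. In the common stretches printed above, R1 had 40.0% GC and 3 CpG, R2 34.4% and 1, R3 45.7% and 10, and R9 50.9% and 2. The median over all merged regions was 46.3% GC and 4 CpG, and over those called in every list it was 57.0% GC and 15 CpG. R1, R5 and R6 had 38.0%, 39.3% and 34.0% GC, and 7.24%, 10.1% and 2.22% of the regions called in every list had as little GC or less. They had 4, 3 and 2 CpG, and 28.4%, 22.9% and 16.1% of those regions had as few or fewer.

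Short consensus sequences of factors known from T cells were sought on both strands, in a window of the same length in every merged region. That window of 300 bases is longer than R2 (180 bp) and R9 (252 bp), and takes in bases beyond them. The median merged region was 294 bp, so the shares over all regions also count matches outside regions. In the 300 bases centred on the region an AP1 sequence (TGANTCA), bound by Fos and Jun proteins, was found in R1 and R6, against 17.9% of all regions. An NFAT sequence (TGGAAA), the site of the calcium-regulated factors, was found in the windows of R6, R7 and R9, against 27.9%. The match in the window of R9 lies beyond the end of that region, so R9 itself gave none there. ETS sequences (GGAAGT) were found in R1, R4, R5 and R8, against 27.6%. RUNX sequences (TGTGGT) were found in 5 of the 9 regions, against 32.8%. GATA sequences (letters GATAA) were found in 5 of the 9, against 37.4%, and an E-box (CANNTG) in the windows of 8 of the 9, against 77.1%. The E-box counted for R2 lies outside the region, whose printed bases hold none. In this window R6 was the only *CD69* region with an NFκB sequence (4.33% of all regions). R8 was the only one with an SRF sequence (1.64%), which overlaps an ETS match by 2 bases. Neither a CRE (TGACGTCA, 0.985% of all regions) nor an EGR sequence (GTGGGCG, 5.85%) was found in these windows. With 9 regions these counts are a description.

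The place of the window matters where peaks are broad and also where, as at R9, the window is longer than the region. With 300 bases centred on the common stretch instead, the AP1 matches of R1 and R6 were found again, NFAT was found in R5 alone (27.6% of all regions) and NFκB in none (4.22%), and R6 gained ETS, RUNX and GATA matches. A window of 300 bases covers only part of the broad regions R3, R5, R6 and R7, so the absence of a match in it says nothing of their other bases, those of the promoter included. In the sequences printed above, R1 holds a RUNX sequence at bases 77 to 82, an AP1 sequence at bases 91 to 97 and an ETS sequence at bases 164 to 169, counted from the 5′ end. R9 has a RUNX sequence at bases 16 to 21. These are matches of letters, and binding was not measured.

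**Figure D4:**
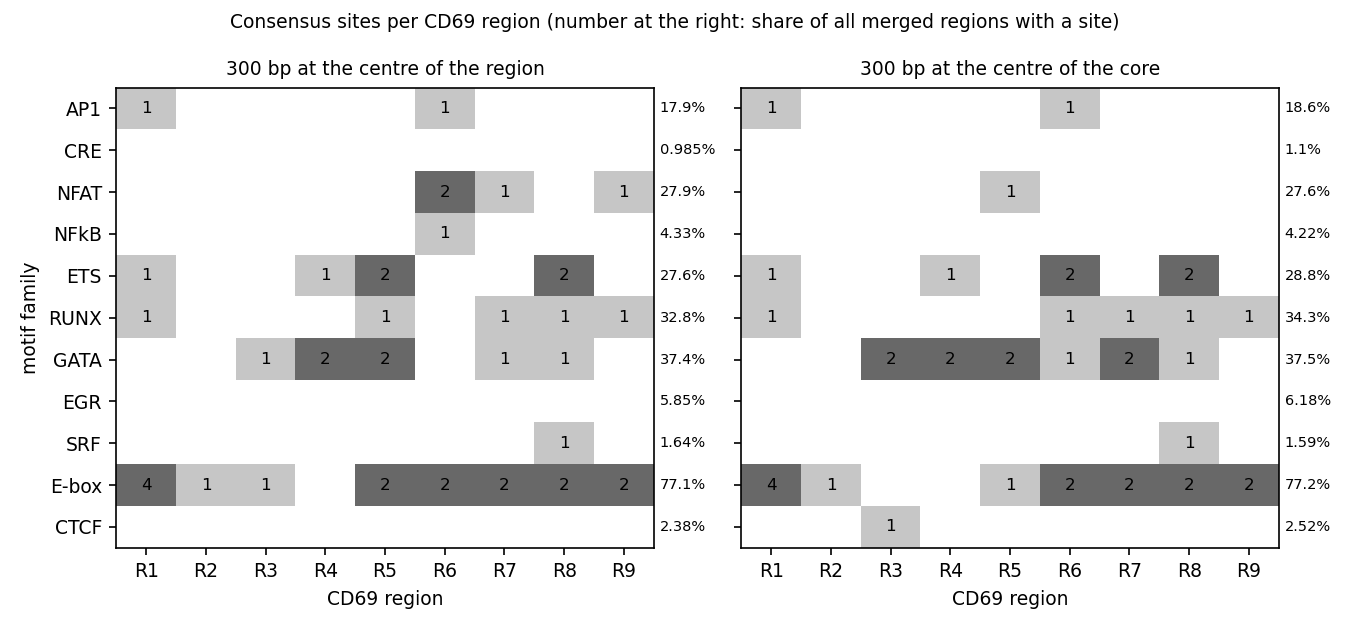
Number of consensus matches (figure in each cell) of each motif family (rows) in each *CD69* region (columns), in the 300 bases at the centre of the merged region (left) and at the centre of the common stretch (right); the percentage beside each row is the share of all merged regions with a match in the same kind of window. AP1 matches fall in R1 and R6 in both panels, and the NFAT and NFκB matches move with the window. At R2 and R9 the window is longer than the region, and the NFAT match of R9 and the E-box of R2 lie outside the region.

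R2 and R3 share sequence. The bases 29 to 118 of the R2 stretch align with bases 1 to 90 of the R3 stretch on the same strand, with 76 identical positions in 92 aligned columns (82.6%). This was the highest alignment score of any pair of the 9 stretches (42, against 14 for the next pair). The CTCF consensus, which was searched only after the sequences had been seen, has 1 match in R3, at bases 48 to 59 and inside the shared part, and none in R2, and 2.52% of all regions hold one in the window centred on the common stretch. R2 had a peak in SW DMSO alone, whereas R3 had one in SW DMSO, NS rottlerin and SW rottlerin. Whether reads mapped equally well to both copies was not tested.

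Counted over coding genes, the *CD69* window was rich in merged regions. Of the 13368 coding genes whose body lies within 50 kb of the TSS, so that the window has the same length, 462 (3.46%) had at least 9 regions, and the median was 3. At least 6 regions without an NS DMSO peak were found at 178 of these genes (1.33%), against a median of 1. At least 2 regions with a peak in each list but NS DMSO were found at 311 genes (2.33%), and at least 3 regions called in every list at 2494 genes (18.7%). Neighbouring genes share regions, so these genes are not independent.

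**Figure D5:**
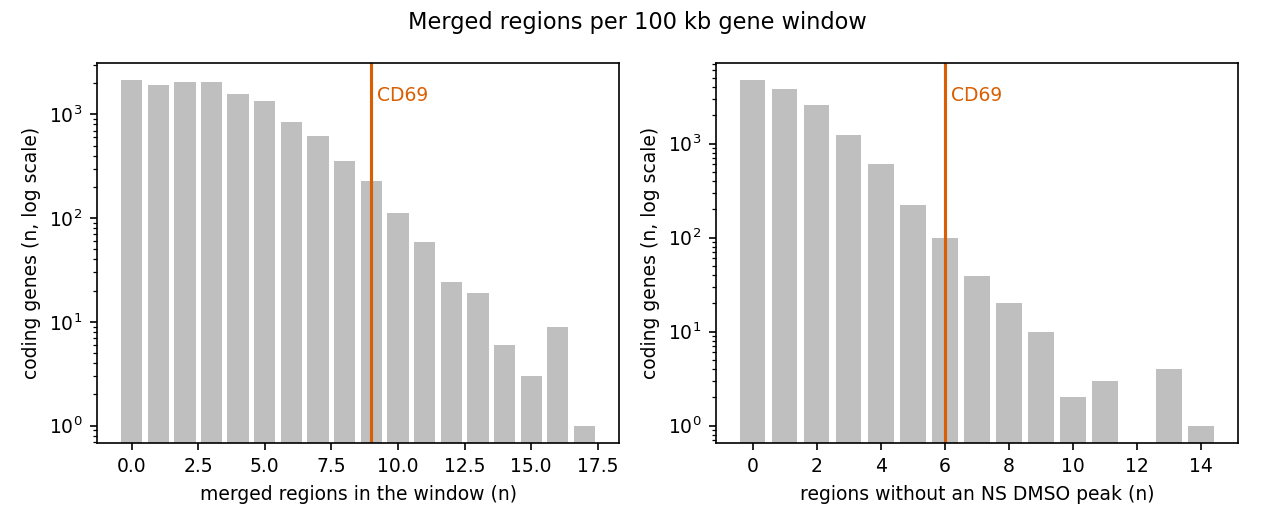
Merged regions (left, x axis) and merged regions without an NS DMSO peak (right, x axis) per window, over 13368 coding genes whose window has the length of the *CD69* window (y axis, number of genes on a log scale). The vertical line marks *CD69*, at 9 regions and at 6 regions without an NS DMSO peak.

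Among the 4011 of these genes with at least 3 NS DMSO regions, 4 (0.0997%) had at least 2 times as many regions in each other list as in NS DMSO, among them *CD69*, *IRF2BP2* and *DERL1*. This measure was chosen after the *CD69* values had been seen, and the genes are named as a description. *IRF2BP2*, a transcriptional corepressor, had 3, 7, 6 and 7 regions in NS DMSO, SW DMSO, NS rottlerin and SW rottlerin, and *DERL1*, a protein of endoplasmic reticulum quality control, had 3, 6, 9 and 7.

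The pattern of summed fold enrichment was compared between *CD69* and all 20162 coding genes, as the Euclidean distance of log2(1 + sum) over the 4 lists. At *CD69* the sums were 17.5, 33.6, 32.4 and 28.5 in NS DMSO, SW DMSO, NS rottlerin and SW rottlerin. The nearest genes outside the window were *CD52*, a glycoprotein of the lymphocyte surface, and its neighbour *UBXN11*, both at a distance of 0.289. They had the same 7 regions and the same sums of 20.2, 30.8, 29.2 and 30.3. *OXNAD1* followed at a distance of 0.332, with sums of 18.6, 29.9, 28.5 and 33.1. These genes differ from *CD69* in how the sum arises, since *CD52* and *UBXN11* had 2 of 7 regions without an NS DMSO peak and *OXNAD1*, whose window is longer (135 kb), 3 of 7.

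Other C-type lectin-like receptor genes had fewer regions than *CD69*. Of 20 genes in this list, 17 had at least 1 merged region by the same rule, as had 85.6% of all 20162 coding genes. The median was 3, which was also the median of all coding genes, and none reached 9. At least 1 region without an NS DMSO peak was found at 17 of the 20, against 68.0% of all coding genes, and a region with a peak in each list but NS DMSO at 6 of the 20, against 18.3%. Windows of neighbouring genes in this list overlap, so some regions are counted at several genes, *CD69* regions among them. These 20 genes are therefore not independent. *CLECL1P* had 8 regions, of which 7 are *CD69* regions. *KLRD1*, the CD94 chain of natural killer receptors, had 7 regions in a longer window (154 kb), of which 5 had no NS DMSO peak, and *KLRF2* had 7 of which 4 had none. *KLRF1*, the next coding gene upstream, had 6 regions and shares 2 with *CD69*. The genes *KLRC1*, *KLRC2* and *KLRC3*, inhibitory and activating natural killer receptor chains, had no region.

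Other inducible surface proteins of activated T cells each had at least 3 regions, and 3 was also the median of all coding genes. Over the 10 genes the median was 5.5, and 3 genes had 9 or more, as had 5.42% of all coding genes. Windows of long genes exceed that of *CD69*. *CD40LG*, the ligand that gives help to B cells, had 17 regions of which 9 had no NS DMSO peak. *SLAMF1*, a costimulatory receptor, had 13 and 9. *IL2RA*, the high-affinity chain of the interleukin-2 receptor, had 9 and 5, and 3 of its regions had a peak in each list but NS DMSO. It was the only gene of the 10 with a region of this kind, which 18.3% of all coding genes had. Of the genes for lymphocyte egress and homing, *S1PR1*, the receptor that CD69 binds, had 2 regions of which 1 had no NS DMSO peak. *KLF2*, a transcription factor that drives *S1PR1*, had 7 and 1, and *CCR7*, a lymph node homing receptor, had 8 and 5.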

How the data were processed

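FAIRE-seq libraries of Jurkat cells were prepared by the authors in 8 states with a total input library, 1 library each, and lists for 4 of the 9 samples were analysed. According to the study's methods, adapters were trimmed with CutAdapt, reads were mapped to Hg19 with Bowtie2, duplicates were removed with Picard, and peaks were called per sample against total input by MACS2 in Broad mode. The stated q-value limit lies below the highest q-values in the lists (0.0946 to 0.0983). Tool versions are not given in the sources used here. The lists as deposited give peak positions, a score (the whole part of 10 × −log10 q, except in 3 of 93425 peaks), a ratio (the fold enrichment of column 7) and the −log10 of the p-value and of the q-value. All peaks joined gave 40731 regions, of which 28 on other sequences were removed. That joined total equals the one the study's methods give for its DMSO samples, so the labels of the lists are uncertain.

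A region took a list when any peak of that list lay in it, with the highest fold enrichment of those peaks. Coordinates are 1-based. Genes are from GENCODE release 44 on GRCh37. Genes named are those with a TSS in the window, the 3 coding genes with the nearest pattern, and genes of 3 lists. From the lists, genes with many regions were named, and some with few or none. *IRF2BP2* and *DERL1* are named from the measure chosen after the *CD69* values had been seen. The members and lists were chosen with earlier results of these data known. Joining, window counts and motif search were tested on simulated data and returned what was planted. Python 3.11.15, numpy 2.4.6, pandas 2.3.3 and matplotlib 3.10.9 were used. Alternatives were the joining of touching peaks, q-value limits, list length, coverage, window size and the omission of a list. Confidence intervals are 95% Wilson intervals. Some genes and sequences are not reported here.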

Additional observations from a re-analysis of the deposited data

Results flagged for a closer look

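By their labels, the lists allow the difference between SW and NS to be set side by side after DMSO and after rottlerin. At R1 the fold enrichment of SW less that of NS was 2.39 with DMSO and -0.462 with rottlerin, so the signs were opposite and the 2 differences lay 2.86 apart. At R5 the values were 1.41 and -0.404, which lie 1.82 apart. At R6 both differences were negative, -2.22 with DMSO and -0.416 with rottlerin, and they lay nearly as far apart. The difference was not tested, since each list is 1 library, and the labels of the lists are uncertain, so these values are differences between lists and not effects of a treatment. Opposite signs were found at 45.4% of the 10841 regions called in every list.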

How the results depend on the processing

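No paired analysis was possible because each list is 1 library and no test was made. The 3 counts that lead the account are those of all *CD69* regions (9), of regions without an NS DMSO peak (6) and of regions in all lists (3), and 34 of the 35 values that these counts took under the alternatives run on them stayed within 1.5 times of the value reported. A mean over peaks weighted by length was run on fold enrichments only. Without the NS DMSO list, 5 regions had a peak in every list that remained, by construction, since R3 and R9 then count. Leaving out each of the other lists in turn gave 3. With 1 list omitted the window held 7 to 9 regions, of which 4 to 6 had no NS DMSO peak. Windows of 25 and 100 kb held 7 and 12 regions, of which 4 and 7 had no NS DMSO peak. With a q-value of 0.01 or less, and with lists of the same length, 8 regions remained, of which 5 had no NS DMSO peak. The window of 100 kb raised the NS DMSO regions from 3 to 5. Where a list counted only if it covered at least 50% of the region, the NS DMSO peak of R6 no longer counted and its highest fold enrichment became 5.47. Depth is unknown and limits each absent peak.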
